A study of Mus musculus with 32 samples.

Results

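The change of translation efficiency (TE) between 25 and 5.5 mM glucose was measured in MIN6 cells, a mouse insulinoma line that serves as a model of the β cell, after 24 hours in either medium. TE is the ribosome-protected footprint (RPF) signal of a gene over its polyadenylated RNA in the same culture, and its change is the change in RPFs less the change in RNA. The comparison covered 10 of 16 cultures, which gave 20 of 32 libraries. All cultures were cells of 1 line and all received cycloheximide, which holds ribosomes on the mRNA, before lysis. At 5.5 mM, 3 of 8 cultures entered (cultures 1, 5 and 9), chosen by an RNA count total above 10000000. At 25 mM, 7 of 8 cultures entered (2, 4, 6, 8, 10, 12 and 14), and the 25 mM ranges below cover these 7 only. Culture 16 was left out because its RPFs resembled those at 5.5 mM. The members were thus selected on measured values, and the counts below are therefore also given with culture 16 put back. Cultures 1 to 8 were made in one of 2 batches of libraries and cultures 9 to 16 in the other, so that only culture 9 stood for 5.5 mM in the second batch. The labels number the cultures as biological replicates but do not say how separate their growth was, so the p-values measure the spread between these samples.

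Ribosome profiling sequences the short mRNA fragments that translating ribosomes shield from nuclease. A gene whose RPFs and RNA move together keeps its TE, and TE moves when RPFs change at steady RNA, when RNA changes at steady RPFs, or when they move apart. The mRNAs of ribosomal proteins and of many translation factors carry a terminal oligopyrimidine (TOP) tract at the 5′ end, through which their translation follows nutrient and mTORC1 signals. In β cells glucose is known to raise translation of proinsulin and of other granule proteins within hours.

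RNA totals were 13795978 to 17542565 counts in the 3 cultures at 5.5 mM and 16423766 to 33504572 in the 7 at 25 mM. RPF totals were 1235662 to 7012999 in the first batch and 363569 to 625187 in the second, so TE was measured less precisely in cultures 9, 10, 12 and 14. Ins1 and Ins2 took 3.98% to 8.08% of RNA counts and 7.60% to 12.2% of RPF counts in these cultures, and the other β cell markers Pdx1, Mafa, Nkx6-1, Iapp, Slc2a2, G6pc2, Slc30a8 and Ucn3 were present in each RNA library. Of 29 markers of other pancreatic cell types found in the table, 21 stayed under 1 CPM in each of the 10 RNA libraries and 6 were at 0, among them the acinar genes Cpa1, Cpb1, Prss2 and Ptf1a. Summed over the list, RNA reached 672 to 798 CPM in the 5.5 mM cultures and 816 to 962 CPM in those at 25 mM, without overlap, most of it Krt7 and Gcg, and its part in the results was not tested.

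The 3 cultures at 5.5 mM were not alike in RNA. Across the 10211 genes tested, the RNA library of culture 5 had a median correlation of 0.97 with the 25 mM libraries, whereas cultures 1 and 9 had 0.85 and 0.79. These are correlations across genes, given as a description. RPF libraries of all 3 lay at 0.93, 0.93 and 0.90. RNA of the mitochondrial leucyl-tRNA synthetase gene Lars2, which was at 6250 to 66970 CPM in the 5 left-out cultures at 5.5 mM, stood at 2359, 656 and 7287 CPM in cultures 1, 5 and 9 and at 427 to 2001 CPM at 25 mM. Cultures 1 and 9 lay above the 25 mM cultures by this gene and culture 5 lay among them. The TMM scaling factor of the RNA library was 0.99 in culture 1, 1.07 in culture 5 and 0.79 in culture 9, against 0.97 to 1.06 at 25 mM, so culture 9 stood apart. RNA integrity was not analysed here, and the part of RNA quality in the RNA and TE differences of cultures 1 and 9 was not tested.

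TE was higher at 25 mM for 2083 genes (20.4% of those tested) and lower for 1771 (17.3%), by edgeR's quasi-likelihood test of the interaction at an adjusted p under 0.1. With culture 16 put back, 2106 genes were higher (21.9% of 9634) and 1870 lower (19.4%), of which 1934 and 1659 were called in both fits. The median size of a called change was 0.95 on the log2 scale and the smallest was 0.34. With scaling by library size alone the balance turned, with 1354 genes higher and 2269 lower, and the median over all genes moved from 0.02 to -0.17.

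The calls rested on cultures 1 and 9. For the genes called higher, TE lay 1.04 below the 25 mM mean of the same batch in culture 1 (median over genes, log2), 1.47 below it in culture 9, and 0.21 below it in culture 5. For the genes called lower, the medians were 1.23, 1.61 and 0.21 above it, and no 25 mM culture departed from the others of its batch by more than 0.13. Without culture 1, 0 genes were called in either direction, although 2659 of 9767 had an unadjusted p under 0.05. Without culture 9, 5 genes were higher and 1 lower, and without both, 6 and 0. Without culture 5, 2817 were higher and 3020 lower. Within the first batch, with 2 cultures against 4, 0 genes were called, although 1554 of 10636 reached an unadjusted p under 0.05. Within the other batch, with 1 culture against 3, 2048 were higher and 2078 lower. There the spread comes from the 25 mM cultures alone, and culture 9 is assumed to vary like them.

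**Figure D1:**
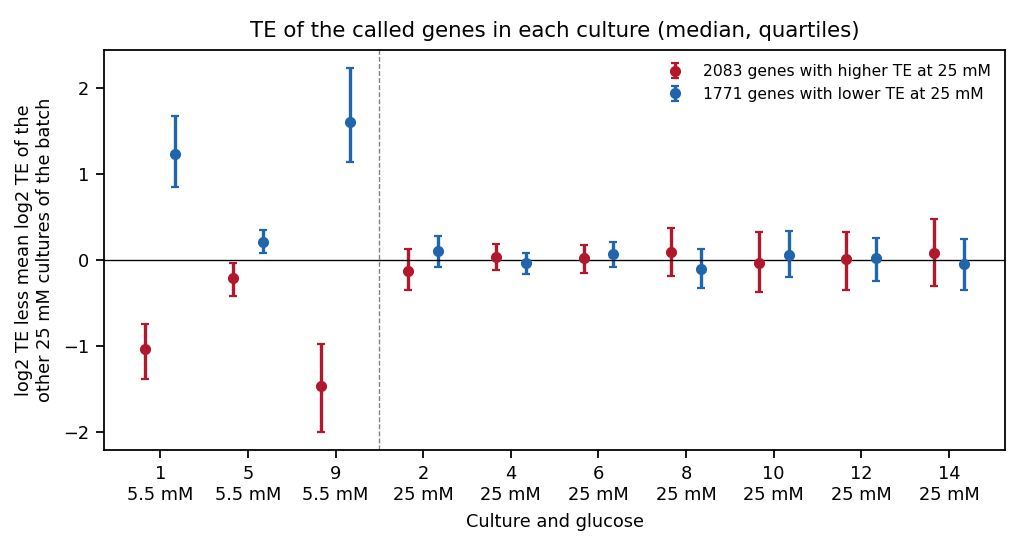
TE of the called genes in each culture: the y axis is log2 TE less the mean log2 TE of the other 25 mM cultures of the same batch, points are medians over genes and bars are quartiles, for the 2083 genes called higher (red) and the 1771 called lower (blue). Cultures 1 and 9 lie far from 0 in opposite directions for the 2 groups of genes, culture 5 lies near 0.21 on the same sides, and the 7 cultures at 25 mM lie within 0.13 of 0.

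Since the calls used these cultures, a stricter description counts genes whose TE did not overlap between the 3 and the 7 cultures. TE of every 25 mM culture lay above every 5.5 mM culture for 408 genes (4.00% of those tested) and below for 625 (6.12%). Of the called genes, 398 with higher TE and 579 with lower TE did not overlap. Genes named below, other than the study's own, those of the lists and those called with culture 5 alone, come from the 510 that did not overlap, were called in both fits and lay above the median level in both RNA and RPFs.

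In most called genes it was RNA that differed. Sorted by the RNA and RPF tests of the same fit, 3221 of the 3854 called genes (83.6%) were RNA-led, with RNA called against the direction of TE and RPFs not called. A further 230 (5.97%) were footprint-led, with RPFs called in the direction of TE and RNA not called. In another 78 (2.02%), here named opposed, RPFs were called with TE and RNA against it. In 91 RNA and RPFs were called in one direction, and in 234 neither was called. A change that was not called is not shown to be absent. Over all genes tested, the SD of the log2 change was 0.76 in RNA, 0.42 in RPFs and 0.75 in TE. Outside the called genes, in 580 genes RNA and RPFs were called in one direction and TE was not.

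**Figure D2:**
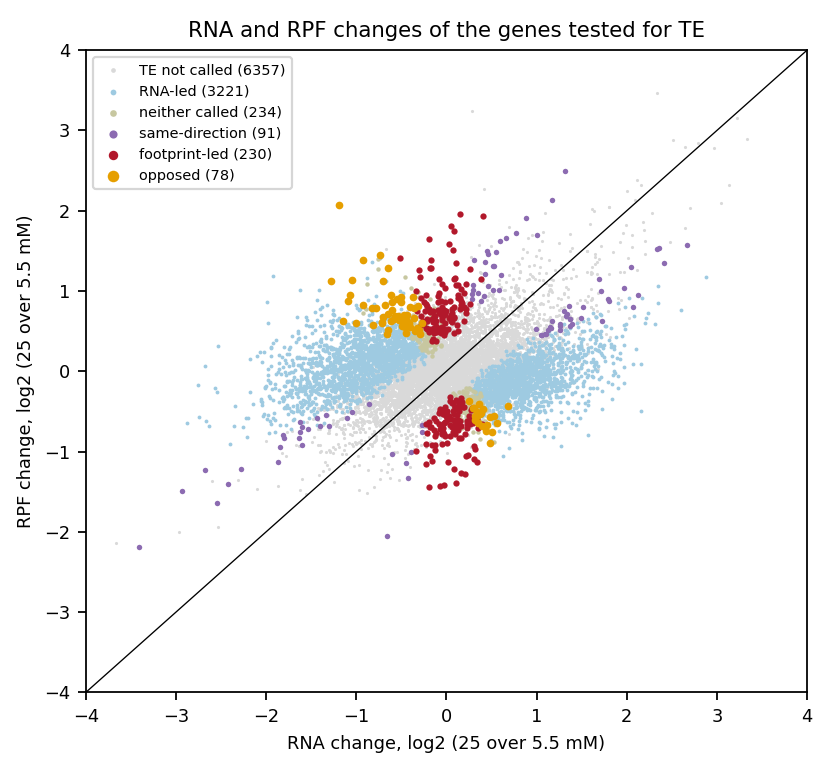
RNA change (x axis) and RPF change (y axis) at 25 over 5.5 mM, both log2, for the 10211 genes tested, coloured by class with the number of genes in the legend; the diagonal marks no TE change and 1 gene lies outside the axes. The 3221 RNA-led genes spread along the horizontal axis, and the 230 footprint-led genes lie above and below the centre.

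The classes differed in what culture 5 showed. In footprint-led genes with higher TE, RPFs at 25 mM exceeded those of cultures 1, 5 and 9 by medians of 0.86, 0.58 and 0.77 (log2), so the RPF difference was present in each. RNA of these genes was 0.09 and 0.28 lower at 25 mM than in cultures 1 and 9 but 0.28 higher than in culture 5, and the TE differences were 0.92, 0.26 and 1.01. The footprint-led genes with lower TE had RPF differences of -0.72, -0.56 and -0.73 and TE differences of -0.87, -0.25 and -1.09. In RNA-led genes, in contrast, culture 5 had little difference in either layer. For those with higher TE, RNA differed by -0.93 and -1.42 in cultures 1 and 9 and by -0.14 in culture 5, and RPFs by 0.14, 0.09 and 0.07. No test was made of these differences between classes, since the classes were defined on the same libraries. With culture 16 put back, 189 of the 230 footprint-led and 77 of the 78 opposed genes were still called for TE.

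The RPF libraries of the 5 left-out cultures at 5.5 mM took no part in the calls. Against them, RPFs at 25 mM were higher by a median of 0.75 for the 118 footprint-led genes with higher TE, beside 0.78 against cultures 1, 5 and 9, and by 0.67 beside 0.69 for the 57 opposed genes with higher TE. For the 112 footprint-led genes with lower TE the values were -0.64 and -0.66, and for the 21 opposed genes -0.48 and -0.59. Both sets of values share the 25 mM libraries, from which culture 16 was left out because of its RPFs. The comparison is thus not free of that choice. With culture 16 put back in the fit, 149 genes were footprint-led in place of 230.

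Among the footprint-led genes with higher TE was Id1, an inhibitor of basic helix-loop-helix transcription factors. Its RPF level was 36.4, 39.7 and 44.0 CPM in cultures 1, 5 and 9 and 67.3 to 190 CPM (median 112) at 25 mM, and its RNA level was 131, 71.1 and 94.1 CPM against 94.8 to 112 CPM. RPFs did not overlap between the concentrations, while RNA did. Log2 TE was -1.25 ± 0.52 (SD, n = 3) and 0.19 ± 0.46 (SD, n = 7), a fitted TE change of 1.55 ± 0.34 (SE, adjusted p = 0.0136).

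Col27a1, which encodes a fibrillar collagen chain, had the widest RPF difference of the 6 genes named in this class. Its RPFs were at 41.9, 29.7 and 44.0 CPM in cultures 1, 5 and 9 and at 97.1 to 172 CPM (median 137) at 25 mM, whereas RNA at 93.5, 55.8 and 182 CPM enclosed the 25 mM range of 74.9 to 146 CPM. The TE change was 1.75 ± 0.43 (SE, adjusted p = 0.0164). In the left-out RPF libraries at 5.5 mM, Col27a1 was at 32.2 to 66.3 CPM and Id1 at 34.4 to 55.8 CPM, both below their 25 mM ranges. The left-out 25 mM culture 16 also lay below those ranges, at 45.4 CPM for each gene.

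The other 4 were Krtcap2, a subunit of the oligosaccharyltransferase that attaches N-glycans in the ER, Mydgf, a secreted growth factor, Cgref1, a protein with EF-hand motifs, and Cacfd1, a membrane protein with a flower domain. RPFs of Krtcap2 stood at 141, 173 and 208 CPM in cultures 1, 5 and 9 and at 259 to 376 CPM (median 318) at 25 mM. Its RNA ranges overlapped (184 to 293 and 191 to 276 CPM), and TE rose by 0.96 ± 0.22 (SE, adjusted p = 0.0146). TE changes were 0.98 for Mydgf, 1.46 for Cgref1 and 1.19 for Cacfd1. For Mydgf the groups all but met, with log2 TE of -0.40 in culture 5 and -0.38 in the lowest 25 mM culture. Eif1b, a paralogue of the start-codon scanning factor eIF1, also belonged to the class, with a TE change of 0.82 ± 0.19 (SE, adjusted p = 0.0145). In the left-out 25 mM culture 16, RPFs were at 202 CPM for Krtcap2, 71.5 CPM for Mydgf and 15.1 CPM for Cgref1. For Cacfd1 and Eif1b they were at 9.63 and 16.5 CPM. Each lay below its 25 mM range.

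The footprint-led genes with lower TE included App, which encodes the amyloid precursor protein. Its RPF level was 289, 224 and 201 CPM in cultures 1, 5 and 9 and 122 to 170 CPM (median 146) at 25 mM, with RNA at 56.8, 98.9 and 60.5 CPM against 72.6 to 103 CPM. In these cultures RPFs did not overlap, RNA of culture 5 lay among the 25 mM cultures, and RNA of cultures 1 and 9 lay below them. The left-out 25 mM culture 16 had App RPFs of 249 CPM, among the 5.5 mM values. Log2 TE was 1.75 ± 0.58 (SD, n = 3) and 0.76 ± 0.21 (SD, n = 7), and the TE change was -0.94 ± 0.24 (SE, adjusted p = 0.0184).

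Atp2a2 encodes SERCA2, the pump that fills the ER with calcium. Its RPFs were at 4110, 4426 and 4162 CPM in cultures 1, 5 and 9 and at 2412 to 2997 CPM (median 2597) at 25 mM. In the cultures compared, the spread was narrow within each group and the gap between them wide. RNA at 909, 1579 and 1293 CPM enclosed the 25 mM range of 1198 to 1392 CPM, and the TE change was -0.71 ± 0.19 (SE, adjusted p = 0.0188). The left-out RPF libraries at 5.5 mM held Atp2a2 at 3755 to 4540 CPM, again above the 25 mM range. However, the left-out 25 mM culture 16 was at 4278 CPM, among the 5.5 mM values. With all 16 cultures in the fit the sign turned and the TE change of Atp2a2 was 1.80.

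Mthfd1, the cytosolic trifunctional folate enzyme, had RPFs of 309, 331 and 327 CPM in cultures 1, 5 and 9 and 212 to 244 CPM (median 229) at 25 mM, and its TE change of -0.64 ± 0.15 (SE, adjusted p = 0.0147) came with log2 TE of 1.87, 1.77 and 2.19 against 1.19 to 1.38. Aldh1l2, the mitochondrial 10-formyltetrahydrofolate dehydrogenase and a target of the stress factor ATF4, changed by -1.40 ± 0.38 (SE, adjusted p = 0.0216). Its RPFs were 233, 224 and 178 CPM against 63.5 to 147 CPM, but its RNA was 24.9 and 24.5 CPM in cultures 1 and 9 and 87.1 CPM in culture 5, above the 39.3 to 75.5 CPM at 25 mM. The TE change of Maob, a mitochondrial monoamine oxidase, was -0.97. In the left-out 25 mM culture 16, RPFs were at 358 CPM for Mthfd1, 278 CPM for Aldh1l2 and 565 CPM for Maob. Each lay above its 25 mM range.

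Snrnp200 and Prpf8 encode the helicase and the scaffold of the U5 snRNP of the spliceosome, the first footprint-led and the second opposed. RPFs of Snrnp200 were at 799, 662 and 741 CPM in cultures 1, 5 and 9 and at 403 to 534 CPM (median 503) at 25 mM, and its TE change was -0.85 ± 0.19 (SE, adjusted p = 0.0136). The left-out 25 mM culture 16 had RPFs of 806 CPM for Snrnp200 and 1187 CPM for Prpf8, both above their 25 mM ranges. RPFs of Prpf8 were at 1132, 818 and 1121 CPM against 705 to 842 CPM (median 746), so that culture 5 lay inside the 25 mM range, and the TE change was -1.12 ± 0.22 (SE, adjusted p = 0.0118). RNA splicing genes as a list did not follow: 16 of 78 had higher and 13 lower TE, with a median of 0.03, close to all genes tested, and of -0.06 with culture 5 alone at 5.5 mM. The shares were 20.5% and 16.7%, against 20.4% and 17.3% of all genes.

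Other opposed genes with lower TE were Igsf1, an immunoglobulin superfamily membrane protein (-1.21), Hs2st1, a heparan sulfate sulfotransferase (-0.92), Kbtbd2, an adaptor of the CUL3 ubiquitin ligase (-0.90), and Scarb2, a lysosomal membrane protein (-0.77). RPFs of Scarb2 were at 385, 409 and 393 CPM in cultures 1, 5 and 9 and at 264 to 345 CPM (median 285) at 25 mM. Its left-out RPF libraries at 5.5 mM spread over 252 to 357 CPM and overlapped the 25 mM range, unlike those of Igsf1, of which, at 213 to 307 CPM, only 1 lay within its 25 mM range of 123 to 217 CPM. The left-out 25 mM culture 16 lay inside the 25 mM ranges for Scarb2 (330 CPM), Hs2st1 (33.0 CPM) and Kbtbd2 (49.5 CPM). For Igsf1 it lay above the range, at 256 CPM.

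**Figure D3:**
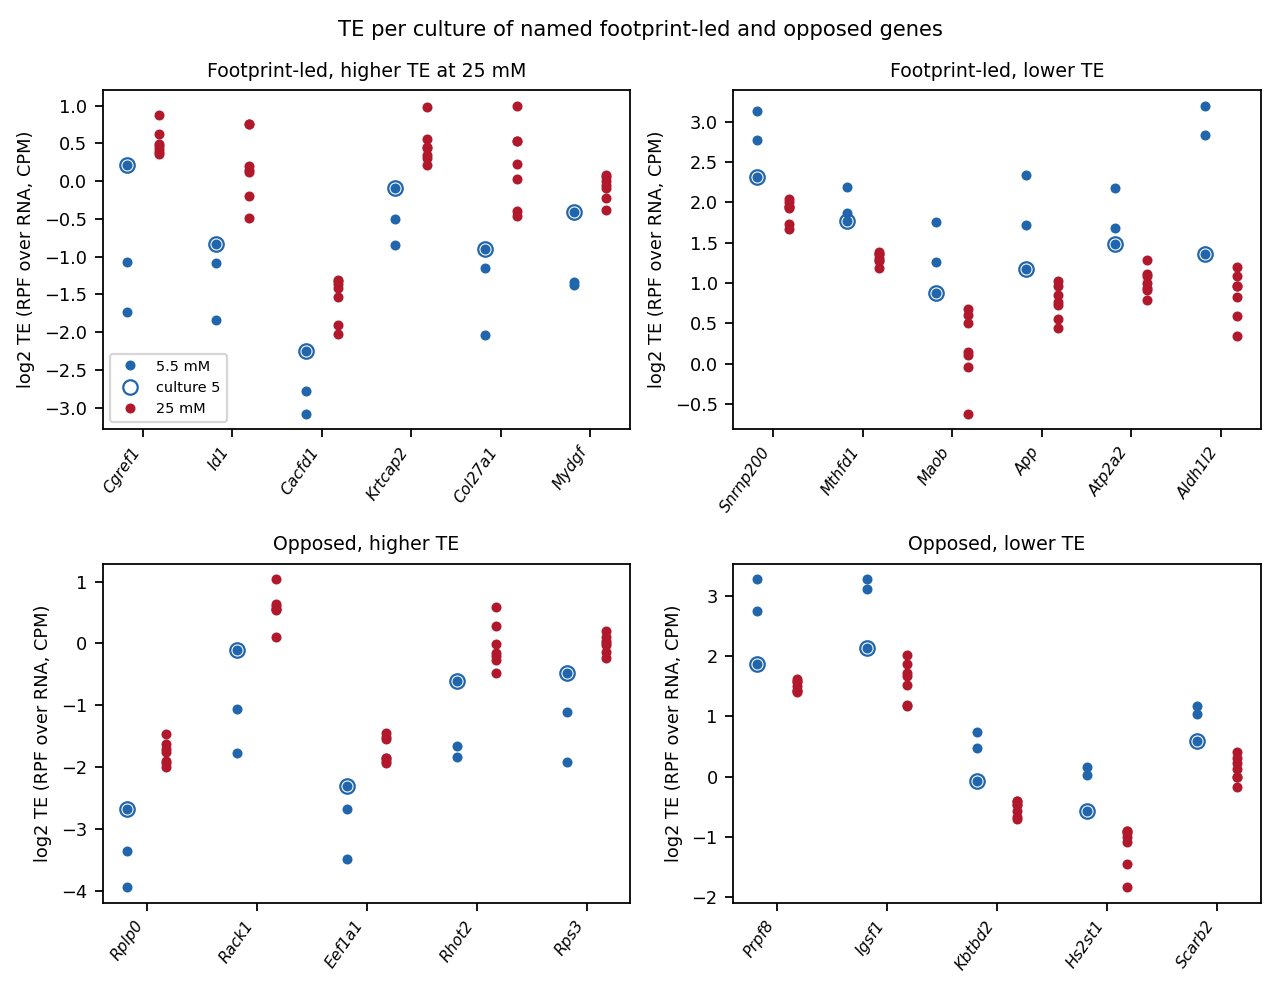
Log2 TE (RPF over RNA, CPM with a pseudocount of 0.5) per culture of 22 named footprint-led and opposed genes, with 5.5 mM cultures in blue, culture 5 ringed and 25 mM cultures in red. By the rule that named them, no gene overlaps between concentrations, and culture 5 is the 5.5 mM culture nearest to the 25 mM cultures for each of the 22 genes.

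Of the 57 opposed genes with higher TE, 4 were cytosolic ribosomal protein genes and 3 were other TOP genes. Rplp0, the base of the ribosomal P stalk, had RPFs of 114, 150 and 102.2 CPM in cultures 1, 5 and 9 and 190 to 271 CPM (median 230) at 25 mM, and RNA of 1760, 963 and 1053 CPM against 685 to 921 CPM. RPFs and RNA were both separated, in opposite directions. Log2 TE was -3.32 ± 0.63 (SD, n = 3) and -1.77 ± 0.19 (SD, n = 7), and the TE change of 1.57 ± 0.23 (SE, adjusted p = 0.00598) had the smallest p of the class. Its left-out RPF libraries at 5.5 mM were at 96.4 to 141 CPM, and the left-out 25 mM culture 16 was at 110 CPM.

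The scaffold protein Rack1, which sits on the small subunit, changed by 1.60 ± 0.27 (SE, adjusted p = 0.00914) and the elongation factor Eef1a1 by 1.12 ± 0.20 (SE, adjusted p = 0.0109). Eef1a1 RNA was at 5682, 3758 and 4709 CPM in cultures 1, 5 and 9 and at 2762 to 3380 CPM at 25 mM, and its RPFs at 508, 763 and 736 CPM against 767 to 1060 CPM. The small-subunit protein Rps3 changed by 1.17. Rhot2, a mitochondrial GTPase of organelle transport, changed by 1.31. RPFs of culture 5 lay inside the 25 mM range for Rack1 (718 CPM) and Rps3 (464 CPM). In the left-out 25 mM culture 16, RPFs were at 613 CPM for Rack1, 657 CPM for Eef1a1 and 360 CPM for Rps3. Each lay below its 25 mM range, which began at 644, 767 and 396 CPM. For Rhot2, culture 16 lay inside the range, at 45.4 CPM.

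Most ribosomal protein genes that were tested had higher TE, though few were opposed. Of 82 cytosolic ribosomal protein genes on the list, 44 were tested. Of these 44, 39 had higher TE and 0 lower, against 20.4% and 17.3% of all genes, and the same 39 were called with culture 16 put back. Their median TE change was 1.56, against 0.02 over all genes, made of a median RNA change of -1.11 and a median RPF change of 0.49. By class, 35 were RNA-led and 4 opposed, Rplp0, Rps3 and Rpl6 among them. TE of every 25 mM culture lay above every 5.5 mM culture for 7 of the 44, and for 4.00% of all genes. Median TE differences from the 25 mM mean of the batch were 2.15 in culture 1, 0.43 in culture 5 and 2.03 in culture 9, the RNA differences -1.40, -0.34 and -1.44, and the RPF differences 0.74, 0.10 and 0.66. With culture 5 alone at 5.5 mM the list's median was 0.50. Ribosomal protein genes have many processed pseudogenes, so that their counts depend on how shared reads were assigned.

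The 22 other genes with TOP mRNAs gave 14 with higher TE and 0 lower (median 0.95). These are 63.6% and 0%, against 20.4% and 17.3% of all genes. Pabpc1, the poly(A)-binding protein, had RPFs of 143, 176 and 162 CPM in cultures 1, 5 and 9 and 185 to 241 CPM at 25 mM, with RNA of 1604, 1045 and 2408 CPM against 746 to 1330 CPM, and a TE change of 1.43 ± 0.24 (SE, adjusted p = 0.00831). The left-out 25 mM culture 16 had Pabpc1 RPFs of 146 CPM. Eef2, the translocation factor, changed by 1.14, Eif3f by 1.81 and Eif3k by 1.12, while 8 were not called. Of these, Eif4a2 was at -0.81 ± 0.37 (SE, adjusted p = 0.107), Cct4, Btf3, Eif3m, Npm1 and Nap1l1 were between -0.30 and -0.02, and Eif3l and Eif4b were at 0.36 and 0.35. Of 37 other initiation and elongation factors, 12 had higher (32.4%) and 5 lower (13.5%) TE (median 0.30), and with culture 5 alone at 5.5 mM the median was -0.13, the opposite sign. Eif4g1, the scaffold of the cap-binding complex, was among the lower, at -0.88 ± 0.20 (SE, adjusted p = 0.0137), but with all 16 cultures in the fit its change was 1.41.

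Since TOP mRNAs are recognised by a run of pyrimidines at their 5′ end, the sequence around the RefSeq start was read for such runs, a C followed by at least 7 bases that are each C or T on the mRNA strand, within 50 bases of the start. RefSeq start sequences (GRCm38.p6) were found for 33 of 44 ribosomal protein and 16 of 22 other TOP genes. These are fewer than 80%, so the share of these lists with a run was not compared with other genes. Of all genes tested, 8264 of 10211 had a sequence and 31.4% of those a run. The share was 29.0% of genes with higher TE, 31.2% of genes whose TE was not called, 29.0% of RNA-led genes with higher TE and 33.2% of those with lower TE, and no test was made of these shares. Of 37 TOP genes called in both fits and matched, 9 had no run in this window. The 6 with the smallest TE p and a run are printed here, apart from genes of a chromosome left out of the printing and runs nearly 30 bases long. They belong to the 2 lists with the highest median TE change, ribosomal proteins and other TOP genes. The run is in capitals, with 30 bases each, mRNA strand, 5′ to 3′. A match is a description of these letters, not a mapped 5′ end. The runs of Rpl14, Rack1 and Eif3f begin 8, 6 and 4 bases before the annotated start, and those of Rpl4, Rps15 and Rpl6 begin at bases 27, 26 and 34 after it.
Rpl14, chr9:120571501-120571530, plus strand: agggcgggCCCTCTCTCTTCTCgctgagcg
Rack1, chr11:48800347-48800376, plus strand: gaggccgCTCTTTCTTTTTCTCCacagggt
Rpl4, chr9:64173406-64173435, plus strand: agcgtggCCTTCTCCTCTCCCCgtcatggt
Rps15, chr10:80292447-80292476, plus strand: cagcccgtaCTTCCTTTTCCgagtaaccgc
Rpl6, chr5:121204521-121204550, plus strand: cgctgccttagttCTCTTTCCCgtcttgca
Eif3f, chr7:108934404-108934433, plus strand: ttctaggCTCTCTCTCTTTCTCggcaagat

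The largest TE changes among the 510 genes were RNA-led in both directions. The 8 highest were Rplp1, a P stalk protein (2.19), Use1, a SNARE of retrograde transport to the ER (2.16), Uqcr10, a subunit of respiratory complex III (2.15), Nenf, the secreted protein neudesin (2.13), Map2k2, the kinase MEK2 (1.97), Atox1, a copper chaperone (1.96), Mettl1, a tRNA methyltransferase (1.94), and Stard10, a lipid transfer protein (1.94). RNA of Rplp1 was at 1527, 603 and 1666 CPM in cultures 1, 5 and 9 and at 245 to 554 CPM at 25 mM, whereas its RPFs at 37.6, 39.1 and 51.9 CPM lay within the 25 mM range of 33.5 to 85.7 CPM. That overlap came from culture 2 alone (33.5 CPM), and the next lowest at 25 mM was culture 14 at 61.0 CPM. Use1 had RNA of 159, 53.7 and 220 CPM against 28.2 to 38.2 CPM, and RPFs of 32.5, 37.5 and 26.7 CPM against 25.4 to 41.6 CPM. In both genes culture 5 was the nearest to 25 mM in RNA, and RPFs overlapped.

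The 8 lowest were Dennd4c, an exchange factor for Rab10 (-2.20), Tmed7, a p24 cargo receptor of the early secretory pathway (-2.11), Lamp2, a lysosomal membrane protein (-2.06), Map2, a microtubule-associated protein (-1.75), Kif20a, a mitotic kinesin (-1.65), Ptbp3, a splicing repressor (-1.65), Zfp207, a spindle assembly factor (-1.61), and Itga6, the integrin α6 chain (-1.57). RNA of Tmed7 was at 6.98 and 5.78 CPM in cultures 1 and 9, at 67.6 CPM in culture 5 and at 88.1 to 101 CPM at 25 mM. Its RPFs were at 171, 200 and 176 CPM against 134 to 198 CPM, so that the difference in TE lay in RNA. RNA of Lamp2 was at 20.0, 128 and 14.3 CPM in cultures 1, 5 and 9 against 116 to 154 CPM, and RPFs at 647, 634 and 503 CPM against 277 to 564 CPM. In Dennd4c RPFs of all 3 cultures at 5.5 mM (613, 470 and 618 CPM) exceeded the 25 mM range of 248 to 388 CPM, though the RPF change did not pass the test in this fit (adjusted p = 0.21), and the left-out 25 mM culture 16 was at 616 CPM. In its RNA, culture 5 (93.8 CPM) fell inside the 25 mM range of 74.9 to 97.2 CPM and cultures 1 and 9 (8.37 and 11.9 CPM) fell far below it.

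**Figure D4:**
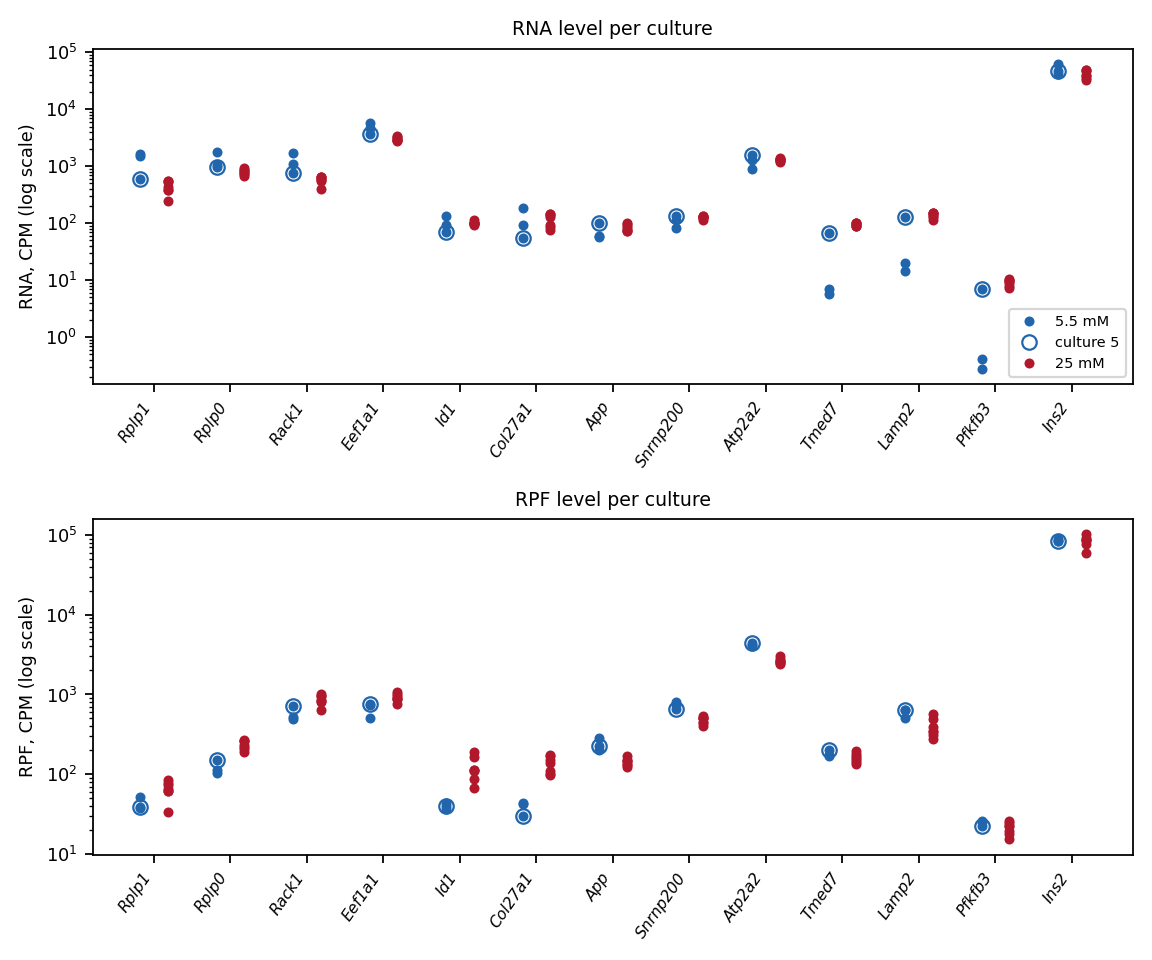
RNA level (top) and RPF level (bottom) in CPM, both on log axes, per culture for 13 named genes, with 5.5 mM in blue, culture 5 ringed and 25 mM in red. RNA of Tmed7, Lamp2 and Pfkfb3 is low only in cultures 1 and 9, with culture 5 near or among the 25 mM cultures. RPFs of Id1, Col27a1, App, Snrnp200 and Atp2a2 are separated by concentration in the 10 cultures shown, with culture 5 among the 5.5 mM cultures. The left-out 25 mM culture 16 is not shown, and its RPFs of these 5 genes lie outside the 25 mM ranges.

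The genes that the study followed in these cells for insulin secretion were chosen on these samples, so their counts are no independent evidence of direction. Of 9 tested, 4 had lower TE, 1 higher and 4 were not called. Over all genes, 17.3% were lower and 20.4% higher. Ins2, the major insulin gene of the mouse, had RPFs of 87890, 84424 and 83689 CPM in cultures 1, 5 and 9 and 59401 to 102360 CPM at 25 mM, and RNA of 63203, 47884 and 41278 CPM against 32919 to 48808 CPM. Both layers overlapped, and the TE change was 0.24 ± 0.20 (SE, adjusted p = 0.373). Ins1 changed by 0.56 ± 0.23 (SE, adjusted p = 0.0762), with an RNA change of -0.50 and overlapping log2 TE (0.02 to 0.75 and 0.48 to 1.39).

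Slc30a8, the zinc transporter of insulin granules, had lower TE without overlap, at 1.45, 0.64 and 0.74 in cultures 1, 5 and 9 and 0.23 to 0.63 at 25 mM. Culture 5 stood just above the highest 25 mM culture, and the change was -0.47 ± 0.20 (SE, adjusted p = 0.0871). Slc2a2, the glucose transporter GLUT2, changed by -0.76 ± 0.30 (SE, adjusted p = 0.0639). Its RNA was 46.2, 113 and 56.8 CPM in cultures 1, 5 and 9 against 71.0 to 96.9 CPM, and with culture 5 alone at 5.5 mM its TE change was 0.07. Pfkfb3, which makes the glycolytic activator fructose 2,6-bisphosphate, had RNA of 0.42, 7.01 and 0.28 CPM against 7.40 to 10.6 CPM, RPFs of 25.9, 22.5 and 25.2 CPM against 15.2 to 26.0 CPM, and a TE change of -1.99 ± 0.70 (SE, adjusted p = 0.0467). Its RPFs overlapped, and its TE difference in culture 5 was -0.32. Igf2 changed by -2.11 ± 0.46 (SE, adjusted p = 0.0136), with RNA of 40.7, 122 and 8.62 CPM against 69.8 to 231 CPM and TE that overlapped.

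Secretagogin (Scgn), a calcium sensor of secretion, had RNA and RPF changes of -1.005 and -0.90, so that its TE change was 0.10 ± 0.23 (SE, adjusted p = 0.758). The mitochondrial isocitrate dehydrogenase Idh2 changed by -0.31 ± 0.19 (SE, adjusted p = 0.227) and the trafficking protein Vps41 by -0.41 ± 0.27 (SE, adjusted p = 0.241), neither called. Of the study's control genes, Actb had higher TE, at 0.74 ± 0.21 (SE, adjusted p = 0.0250), and Tubg1 at 0.51 ± 0.23 (SE, adjusted p = 0.0974), the latter not called with culture 16 put back (adjusted p = 0.112). With culture 5 alone at 5.5 mM the change of Tubg1 was -0.38.

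Genes of the insulin granule and of prohormone processing gave 6 with lower and 1 with higher TE of 23 tested (median -0.07). Their shares were 26.1% lower and 4.35% higher, against 17.3% and 20.4% of all genes. In cultures 1, 5 and 9 the median differences were -0.25, -0.09 and -0.13. Pcsk1, a proinsulin convertase, had RNA of 106, 370 and 134 CPM in cultures 1, 5 and 9 and 589 to 909 CPM at 25 mM, RPFs of 1224, 1423 and 1195 CPM against 1387 to 2237 CPM, and a TE change of -1.29 ± 0.37 (SE, adjusted p = 0.0250). In this gene RNA of all 3 cultures lay below the 25 mM range. Its inhibitor Pcsk1n moved the other way, by 1.52 ± 0.36 (SE, adjusted p = 0.0145). Of 27 genes of granule exocytosis, 5 had higher and 8 lower TE, and of 18 β cell transcription factors 6 had higher and 3 lower TE. These are 18.5% and 29.6% of the first list and 33.3% and 16.7% of the second, against 20.4% and 17.3% of all genes. The medians were -0.06 and 0.03, against 0.02 over all genes. Nkx6-1 (1.58), Isl1 (1.07) and Mafa (0.88) were among the higher and all 3 were RNA-led. TE of Nkx6-1 and Isl1 overlapped between concentrations. TE differences in cultures 1, 5 and 9 were 0.59, 0.22 and 3.23 for Nkx6-1 and 0.57, 0.19 and 1.98 for Isl1. For Mafa they were 0.60, 0.36 and 1.43, so culture 9 differed most in each gene.

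In energy metabolism, 34 of 66 nuclear genes of the respiratory chain had higher TE (51.5%, against 20.4% of all genes) and 3 lower (4.55%, against 17.3%), and the median was 0.59, with Uqcr10 (2.15), Ndufa2 (1.67) and Cox4i1 (1.10) as examples and Ndufs1, Uqcrc2 and Ndufb6 as those that fell. The median was 0.76 in culture 1 and 0.73 in culture 9, and 0.01 in culture 5. Mitochondrial ribosomal proteins gave 39 higher (52.7%) and 1 lower (1.35%) of 74 (median 0.59), again with 0.76, 0.79 and 0.07 in cultures 1, 9 and 5. Genes of glucose metabolism gave 8 higher and 3 lower of 30 (median 0.37), and those of the TCA cycle 3 higher and 5 lower of 39 (median -0.13). The shares were 26.7% and 10.0% for glucose metabolism and 7.69% and 12.8% for the TCA cycle, nearer to those of all genes. With culture 5 alone at 5.5 mM the glucose metabolism list had a median of -0.15, the opposite sign.

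Genes of the nuclear pore and mRNA export, of mitosis and of deubiquitination had more lower than higher calls, as did several other lists. Of 38 pore and export genes, 15 had lower and 3 higher TE (median -0.36). These are 39.5% and 7.89%, against 17.3% lower and 20.4% higher over all genes. Nup205 (-1.16), Nup155 (-0.91) and the export helicase Ddx19a (-0.76) did not overlap between concentrations, and the 3 higher were the export factors Thoc2, Thoc3 and Alyref. Of 52 mitosis genes, 20 had lower and 2 higher TE (median -0.46), and of 42 ubiquitin-specific proteases and related genes 12 had lower and 4 higher (median -0.40), Usp22 of the SAGA complex (-1.39) and Usp7 (-1.12) among the lower. In culture 5 these 3 medians were -0.11, -0.13 and -0.09, and in cultures 1 and 9 they lay between -0.82 and -0.40. Shares lower and higher were 38.5% and 3.85% for mitosis genes and 28.6% and 9.52% for the proteases. Of 75 ER-to-Golgi transport genes, 14 had higher and 19 lower TE (median -0.11), with the COPII coat gene Sec23b at -1.49 and the p24 gene Tmed3 at 1.23. Their shares, 18.7% higher and 25.3% lower, were nearer to those of all genes.

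**Figure D5:**
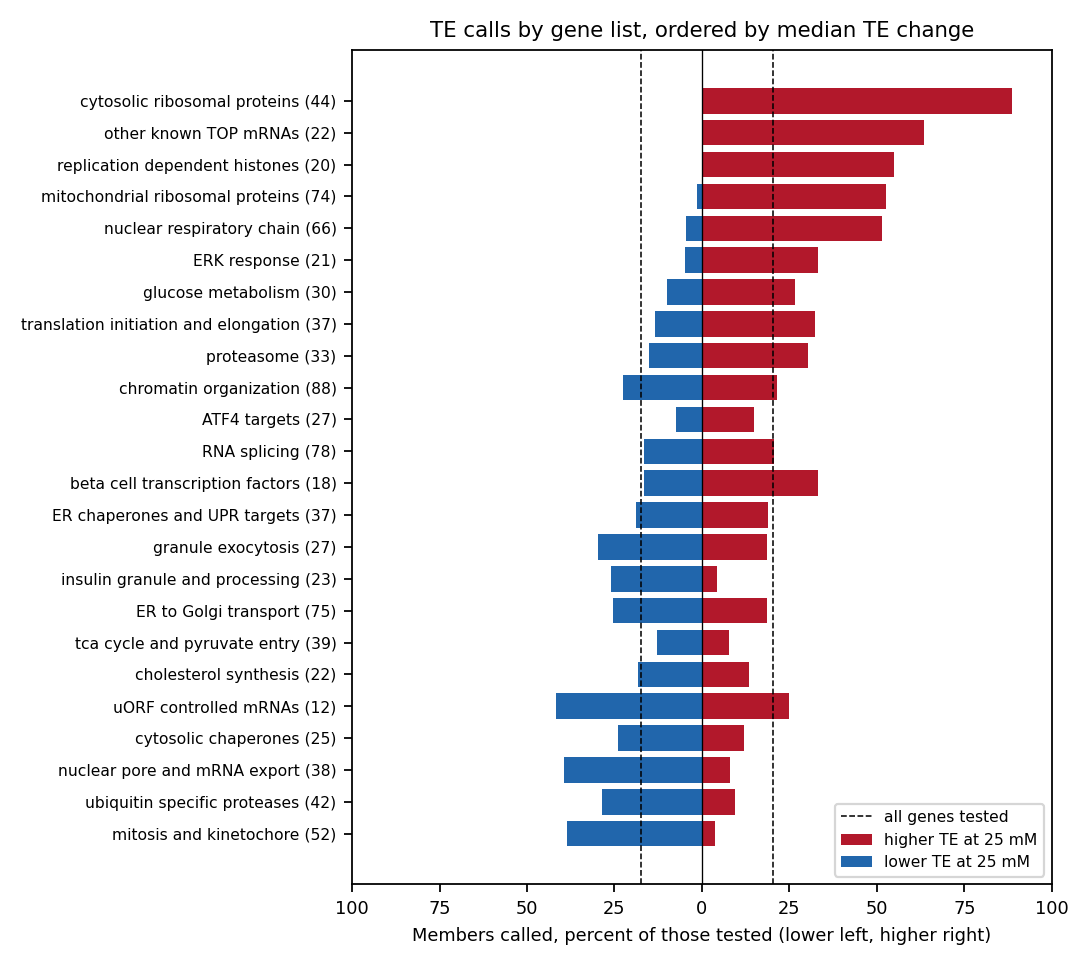
Percent of tested members called for TE in each gene list, higher at 25 mM to the right (red) and lower to the left (blue), ordered by median TE change with the number tested in parentheses; dashed lines mark the percentages over all genes tested. Cytosolic ribosomal proteins stand at 88.6% higher and 0% lower, and mitosis genes at 3.85% higher and 38.5% lower.

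Genes of the ERK response, of which many are immediate early genes, gave 7 higher and 1 lower of 21 (median 0.58). These are 33.3% and 4.76%, against 20.4% and 17.3% of all genes. Ier2 was higher in TE by 2.18 ± 0.32 (SE, adjusted p = 0.00598), and here culture 5 stood with the others. Its RNA was at 217, 102.1 and 292 CPM in cultures 1, 5 and 9 and at 24.0 to 40.9 CPM at 25 mM, its RPFs at 36.0, 24.8 and 64.5 CPM overlapped the 18.03 to 38.1 CPM at 25 mM, and its TE differences were 2.27, 1.71 and 2.20. The left-out RPF libraries at 5.5 mM held Ier2 at 25.0 to 112 CPM, with a median of 101 CPM, above that 25 mM range. The left-out 25 mM culture 16 was at 113 CPM. Of 27 ATF4 targets, 4 had higher (14.8%) and 2 lower (7.41%) TE (median 0.15, and -0.02 with culture 5 alone at 5.5 mM), although their median RNA and RPF changes were -0.62 and -0.72. Chaperones and other targets of the unfolded protein response gave 7 higher and 7 lower of 37 (median -0.04), with median RNA and RPF changes of 0.59 and 0.51. Both shares were 18.9%, near those of all genes.

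With culture 5 as the only culture at 5.5 mM, 6 genes had higher TE and 0 lower, with the spread taken from the 25 mM cultures. They were Srrm3, a splicing regulator (2.35), Ier2 (1.69), the immediate early gene Fos (1.99), Slc25a37, a mitochondrial iron importer (1.95), Avpi1 (4.06) and Abcb8, a mitochondrial transporter (4.21), named after their values were seen. Ier2 and Fos were RNA-led and the other 4 footprint-led. RPFs of Srrm3 were at 17.3 CPM in culture 5 and 51.8 to 392 CPM at 25 mM, and those of Abcb8 at 604 CPM against 1978 to 32861 CPM. The spread of the 25 mM cultures in these 2 genes was wide. Levels were low for Slc25a37, with RPFs of 2.06 CPM in culture 5 and 6.12 to 17.8 CPM at 25 mM. Avpi1 had low RNA, at 3.45 to 11.0 CPM over the cultures compared. Its RPFs were at 153 CPM in culture 5 and spread over 917 to 4322 CPM at 25 mM. Ier2 was the only one of the 6 whose log2 TE lay below the 25 mM range in all 3 cultures. In the other 5, culture 9 lay within that range, and in Avpi1 and Slc25a37 culture 1 did too.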

How the data were processed

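Ribosome-protected footprints and polyadenylated RNA of MIN6 cells were sequenced, and the authors deposited 1 table of counts per gene for each. Per the study's methods the reads were trimmed and aligned with the XPRESSyourself pipeline, rRNA reads and PCR duplicates were removed, and reads were counted over the exons or the truncated coding sequence of 1 transcript, the longest, for each gene that codes for a protein. Removal of duplicates can compress the counts of abundant genes, and intervals cover counting error and the spread between libraries only. The depth of each library is given as the range of count totals.

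Columns were matched to cultures by their labels. RNA and RPF libraries shared the culture number and were taken as a pair from the same culture. The main fit had no term for culture, so its p-values do not use this pairing. RNA and RPF deviations of a culture from its group and batch means correlated between -0.05 and 0.34 across genes. Culture 9, alone in its group and batch, gave no value. Only for culture 4 was the library of the same culture the best match, so the pairing rests on the labels. Genes with enough counts in both tables (edgeR's filter) were fitted in 1 model with edgeR 4.0.16 (R 4.3.3), TMM scaling within each library type, and terms for batch within library type, glucose, library type and their interaction, the TE change. Quasi-likelihood tests were adjusted over all 10211 genes by Benjamini-Hochberg with a limit of 0.1. CPM values use TMM-scaled library sizes, and log2 TE per culture has a pseudocount of 0.5 CPM. Symbols were matched for 10206 genes.

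Genes were named as follows: the 8 highest and 8 lowest TE changes and 6 per direction among footprint-led and opposed genes, from those that did not overlap, were called with and without culture 16 and lay above the median level, up to 3 per gene list, and the study's own genes. Of the genes so chosen, 2 are not reported here. The members and lists were chosen with earlier results of these data known. Lists are described by counts and medians in place of a test. Alternatives used DESeq2 1.42.0 and limma 3.58.1, other scalings, filters, batch terms and sets of cultures. Figures were drawn with matplotlib 3.10.9 and numpy 2.4.6 in Python 3.11.15. The scripts were tested on simulated data.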

Additional observations from a re-analysis of the deposited data

Results flagged for a closer look

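In 56 groups of 25 mM cultures examined for a sample far from the others, of which chance flags about 1 in 20, culture 14 stood apart in 2. Its log2 TE was 0.96 for Map2, where the other 25 mM cultures lay between 1.46 and 1.77, and 0.24 for Zfp207, where they lay between 0.86 and 1.32.

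The TE change differed between the 2 library batches for 16 of the named genes, by edgeR's test of the difference with an adjusted p under 0.1, and for 810 of 10211 genes in all. The second batch held 1 culture at 5.5 mM, culture 9, and the first held cultures 1 and 5, so batch and culture cannot be told apart. The values are the TE change in the second batch less that in the first. Genes with a more positive change in the second batch were Nkx6-1 (2.73), Phlda1 (2.18), Atox1 (2.15), Spc24 (1.81), Isl1 (1.58) and Tmed3 (1.26). Genes with a more negative change were Zfp207 (-3.43), Cct6a (-2.87), Lamp2 (-2.79), Kif20a (-2.64), Sec23b (-2.28), Usp22 (-2.24), Usp7 (-1.78), Stip1 (-1.32), Nup205 (-1.27) and Prpf8 (-1.03).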

How the results depend on the processing

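The counts rest on cultures 1 and 9, and leaving out a single culture moved genes with higher TE over 0 to 2817, with lower TE over 0 to 3020, RNA-led genes over 0 to 4429, footprint-led genes over 0 to 315 and opposed genes over 0 to 564. Without cultures 1 and 9, an alternative chosen after seeing the data, 6 genes were higher, 0 lower, 2 RNA-led, 4 footprint-led and 0 opposed. The first batch alone gave 0 for all 5 counts, and the second 78 footprint-led and 161 opposed genes. With the replicate number as a replicate block, 1 gene was higher, 0 lower, 0 RNA-led, 0 footprint-led and 1 opposed. Those numbers are shared across glucose but nothing ties the cultures, and deviations of same-numbered RNA libraries correlated at 0.44, -0.19 and 0.17 and those of RPF libraries at 0.093, 0.42 and 0.20. With the culture as a replicate block, 1470 genes were higher and 1648 lower. Library size scaling gave 1354 higher. Footprint-led genes numbered 146 without the batch term, 149 with culture 16, 85 with all 16 cultures, 525 with all 8 RPF libraries at 5.5 mM and 517 with the 5 left-out ones in place of the 3. Opposed genes numbered 36, 49, 39, 413 and 326 under the same settings, 45 without the filter on low counts and 118 by DESeq2's Wald test.

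Signs turned for single genes. With all 16 cultures the TE change was 1.80 for Atp2a2, 1.71 for Scg2, 1.41 for Eif4g1, 0.98 for Kdm5c, 0.42 for Map2, 0.39 for Cadps, 0.23 for Hmgcs1, 0.087 for Hs2st1, -0.0018 for Ucn3, -0.033 for Eif1b, -0.18 for Tubg1, -0.23 for Krt7, -0.26 for Sem1, -0.50 for Ins1, -0.77 for Scgn and -1.02 for Ins2. Scgn was at -0.085 with library size scaling, -0.014 without the filter and -0.044 with the left-out RPF libraries. Without cultures 1 and 9 the change was 0.070 for Slc2a2, 0.031 for Cadps, -0.024 for Eno2, -0.024 for Ucn3, -0.13 for Mvd, -0.15 for Krt7 and -0.38 for Tubg1. The cause was not tested, beyond the change of libraries that each setting makes.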

Other observations

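Over all genes, 20.4% had higher and 17.3% lower TE. Replication-dependent histone genes, whose mRNAs mostly lack poly(A) tails, had higher TE for 11 of 20 tested (55%) and lower for 0 (median 0.81, with 0.58, 0.27 and 1.16 in cultures 1, 5 and 9). The list held 58 histone genes, of which these 20 were tested. Copies of histone genes are near identical, so counts of single members are uncertain. Of 7 mitochondrially encoded genes tested, 2 had lower (28.6%) and 0 higher TE (median -0.74), and with culture 5 alone at 5.5 mM the median was 0.35. Of 12 mRNAs with known upstream open reading frame control, 3 had higher (25%) and 5 lower (41.7%) TE (median -0.22). Of 33 proteasome genes, 10 had higher and 5 lower TE (median 0.27, and -0.063 with culture 5 alone at 5.5 mM), of 25 cytosolic chaperones 3 and 6 (median -0.30), of 22 genes of cholesterol synthesis 3 and 4 (median -0.19), and of 88 chromatin genes 19 and 20 (median 0.17). The shares were 30.3% and 15.2% for the proteasome and 12% and 24% for the chaperones. For cholesterol synthesis they were 13.6% and 18.2%, and for chromatin genes 21.6% and 22.7%.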
